A study of Mus musculus with 72 samples.

Results

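Transcripts of 9 genes of heme biosynthesis were followed in the blood of mice exposed to neutrons or x-rays: Alas1, Alas2, Alad, Uros, Urod, Cpox, Ppox, Fech and the mitochondrial carrier gene Slc25a38. They were chosen by gene name, each is represented by its brightest detected probe, and all 9 were among the 16098 genes tested. RNA came from the whole blood of male C57BL/6 mice, 8 to 10 weeks old at irradiation, drawn by cardiac puncture, depleted of globin transcripts and hybridized on 72 one-colour arrays, 1 mouse each. Irradiated mice received 0.25 or 1 Gy from a neutron beam that also carries γ rays, or 1 or 4 Gy of x-rays. Sham controls went through the holders and the neutron wheel without beam, and served both radiation types. Blood was taken at days 1, 3 and 7. Controls numbered 5, 5 and 6 mice at those days. Neutron groups held 6, 6 and 5 mice at 0.25 Gy, and 6 mice at 1 Gy on each of days 1 and 7. The 1 Gy x-ray groups held 6, 5 and 5 mice, and the 4 Gy x-ray groups 5 mice at day 1 and 6 at day 7. No mice given 1 Gy neutrons or 4 Gy x-rays were analysed at day 3. Groups are those of the array files. In the authors' processed value table, 12 of 72 columns followed the array of the sample they are named for and the others followed another array more closely, so that table was used in 1 comparison only, and which of both carries the right label was not tested.

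Heme is built in steps shared between the mitochondrion and the cytosol. ALAS joins glycine to succinyl-CoA in the mitochondrion and sets the pace, with Alas1 serving most tissues, the liver above all, and Alas2 the red cell line. SLC25A38 is the mitochondrial carrier linked to glycine supply. In the cytosol ALAD makes porphobilinogen, UROS closes the ring, and UROD trims its side chains. CPOX and PPOX then oxidise it in the mitochondrion, and FECH inserts iron. In blood the transcripts of Alas2 lie mainly in young red cells (reticulocytes), which lose their RNA as they mature.

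Promoters of Alas2, Cpox and Alas1 are shown because the red cell enzyme, the member called highest at day 7 after 1 Gy neutrons and the general enzyme differ in the erythroid motifs they hold. Each line gives the 250 bases before the transcription start, 5′ to 3′ on the gene's strand, from RefSeq on GRCm38.p6. Alas2 lies at chrX:150547167-150547416 (+), Cpox at chr16:58669958-58670207 (+) and the upstream of 2 Alas1 starts at chr9:106247955-106248204 (-). Capitals mark matches, on either strand, to the GATA motif (AGATAA, where the opening A may be T and the closing A may be G), the CACCC box (CACCC) or the CCAAT box (CCAAT).
Alas2: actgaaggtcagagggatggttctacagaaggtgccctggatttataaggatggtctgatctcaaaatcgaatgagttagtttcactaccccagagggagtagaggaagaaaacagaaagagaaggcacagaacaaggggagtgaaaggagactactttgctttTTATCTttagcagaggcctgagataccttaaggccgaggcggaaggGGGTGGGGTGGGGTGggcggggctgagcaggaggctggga
Cpox: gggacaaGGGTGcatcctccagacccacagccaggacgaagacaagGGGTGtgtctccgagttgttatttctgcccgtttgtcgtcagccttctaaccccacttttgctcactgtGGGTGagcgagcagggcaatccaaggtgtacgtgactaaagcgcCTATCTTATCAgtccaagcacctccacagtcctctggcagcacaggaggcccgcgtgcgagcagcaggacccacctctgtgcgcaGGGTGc
Alas1: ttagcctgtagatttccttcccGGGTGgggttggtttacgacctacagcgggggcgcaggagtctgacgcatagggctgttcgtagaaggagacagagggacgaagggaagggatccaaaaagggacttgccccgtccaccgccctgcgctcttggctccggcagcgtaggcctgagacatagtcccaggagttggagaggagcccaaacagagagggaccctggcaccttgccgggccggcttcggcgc

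The Alas2 window holds 1 GATA match and 3 CACCC matches side by side, all on the reverse strand. The Cpox window holds 2 GATA matches that overlap and 4 CACCC matches. The Alas1 window shown holds 1 CACCC match and none of the others. RefSeq windows were found for 8 members, 11 windows in all, and none was found for Fech. A GATA match was in 3 of the 11 windows (Alas2, Cpox and 1 of 2 for Uros), a CACCC match in 6 and a CCAAT match in 4, of which Ppox held 4 matches in 1 window. Over all 32851 windows of this length, 26.5% held a GATA match, 52.0% a CACCC match and 33.8% a CCAAT match. A match is a description of the letters only.

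Levels are log2 of the background-corrected spot intensity minus the median of the detected probes on that array, so a level of 0 is the brightness of a median detected probe. A gene was called in a comparison when limma's p was below 0.001 and its Benjamini-Hochberg FDR was below 0.05 over all genes tested. Whole blood is a mixture, so fewer cells of a type and less RNA per cell cannot be told apart. The samples carried blood markers: all 26 erythroid markers, all 14 T cell markers and all 12 platelet markers listed were detected, as were 10 of 12 B cell, 11 of 12 neutrophil and 7 of 8 monocyte markers. Transcripts of hepatocytes were present as well. Of 34 hepatocyte markers, 34 were well above background on every array at day 1 in mice given 4 Gy x-rays, 24 on every control array of that day and 7 on every control array of day 7.

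The members differed widely in brightness. Alas2 ranked 3 and Fech 87 among the 19808 detected probes by mean intensity, Urod 1650, and Alad, the dimmest, 9358. The Alas2 spot ran from an intensity of 147850 to 659210 and was flagged as saturated on 10 arrays, 3 of them at day 1 after 0.25 Gy neutrons and 3 at day 1 after 1 Gy neutrons. Over the 13 group means its centred level correlated with the array median at r = -0.95, where the points share the arrays that supply both. The array median itself fell at day 7 after 1 Gy neutrons, to 6.16 to 6.88 (log2 intensity), against 8.34 to 8.86 in the controls, with no overlap. The spike-in control spots of the same arrays stood at a mean of 10.33 to 11.24, against 10.49 to 10.998. Intensities before centring or values centred on the spike-ins are given beside the main results that this touches.

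**Figure D1:**
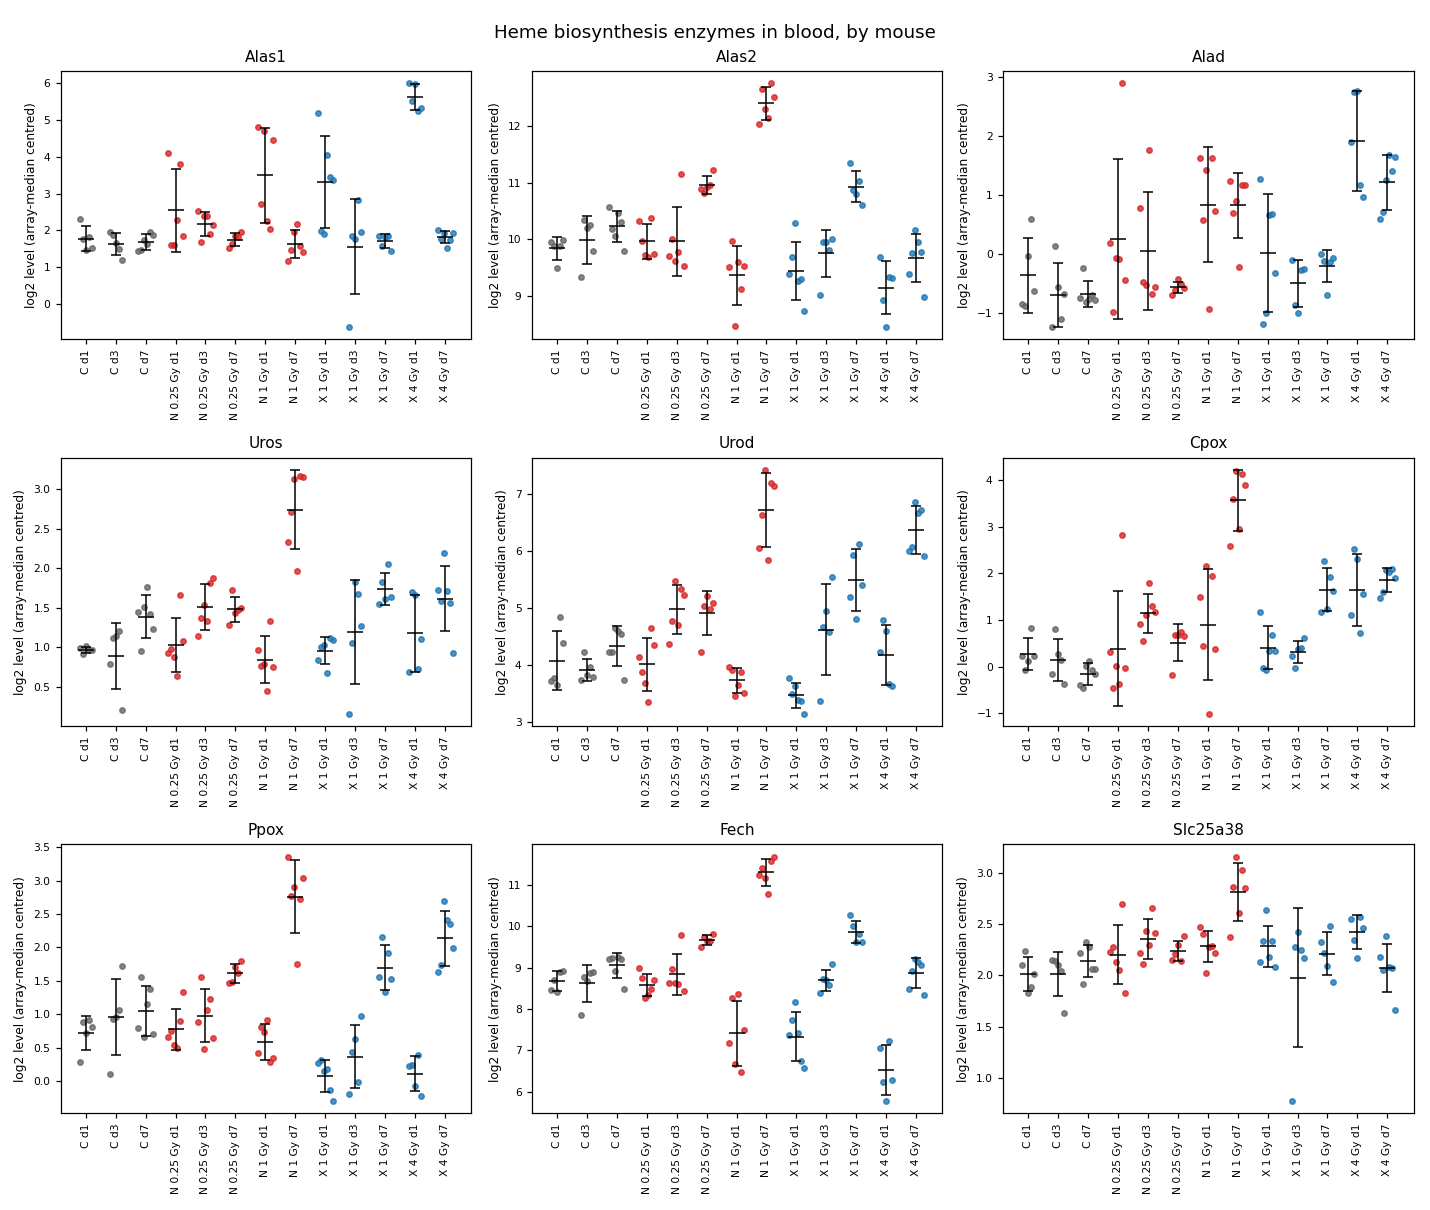
Level of each enzyme transcript (y axis, log2, centred on the array median) by group (x axis; C control, N neutron, X x-ray, d day), with 1 point per mouse (grey control, red neutron, blue x-ray) and bars for the mean and SD. Alas1 and Alad have their highest mean at day 1 in mice given 4 Gy x-rays, and the other members at day 7 after 1 Gy neutrons.

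In the day 1 mice given 4 Gy x-rays Alas1 and Alad rose and Fech, which encodes the last enzyme, fell. Their arrays shared no scan date with those of the controls, so scan date and exposure cannot be fully told apart. Background calls in this comparison were 12.8% of genes higher and 16.6% lower, and of the 9 members 2 were called higher and 1 lower, near those shares, so the counts show nothing particular to the members.

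Fech stood at 8.45, 8.71, 8.42, 8.90 and 8.93 in the 5 controls of day 1 and at 7.05, 6.23, 5.78, 7.23 and 6.29 in the 5 mice given 4 Gy x-rays. The groups did not overlap, and they did not overlap before centring either, at intensities of 185490 to 316320 against 33481 to 86892. The log2 fold change was -2.16 ± 0.27 (SE; adjusted p = 0.000114), and -2.01 with spike-in centring. Fech fell by 1.35 ± 0.26 after 1 Gy x-rays (adjusted p = 0.00773), the only member called there, where 3.8% of all genes were called lower. Its 6 levels ran from 6.58 to 8.16 (median 7.39), all below every control. With the scan date as a random block that call was lost, at -1.29 (adjusted p = 0.0753). In the 1 Gy neutron mice Fech was at 6.48 to 8.36 (median 7.33), below every control on the centred scale. Its log2 fold change of -1.27 ± 0.34 missed the threshold (adjusted p = 0.0116). Before centring these mice overlapped the controls, at intensities of 90885 to 263350 against 185490 to 316320. With spike-in centring the change was -0.78 and not called.

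Markers of the erythroid list moved with Fech after x-rays. In the day 1 mice given 4 Gy x-rays, 17 of them were called lower and 3 higher, and their mean level was -0.79 to 0.77 against 1.62 to 2.52 in the controls. In those given 1 Gy x-rays 14 were lower and 1 higher, and in those given 1 Gy neutrons 3 were lower and 2 higher, with a mean level of 0.15 to 2.18. Within groups, over all 72 mice, Fech and the mean of these markers correlated at r = 0.85, given as a description since both come from the same arrays. Their part in the fall of Fech was not tested.

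Alas1 stood at 2.31, 1.76, 1.46, 1.83 and 1.51 in the controls of day 1 and at 6.01, 5.52, 5.99, 5.26 and 5.34 after 4 Gy x-rays. Every irradiated mouse was above every control, at intensities of 20501 to 39131 against 1843 to 2620. The log2 fold change was 3.85 ± 0.22 (adjusted p = 1.43e-06), and 4.00 with spike-in centring. The 6 mice given 1 Gy neutrons were at 4.80, 2.71, 4.70, 2.26, 2.05 and 4.47, with 4 of 6 above every control. The mean change of 1.73 ± 0.53 was not called (adjusted p = 0.0224). With 1 Gy x-rays the levels ran from 1.91 to 5.19 (median 3.41), a change of 1.55 ± 0.51 that was not called (adjusted p = 0.057). After 0.25 Gy neutrons they ran from 1.61 to 4.11 (median 2.07), and the change of 0.77 ± 0.47 was within the spread (adjusted p = 0.446). A further Alas1 probe, dimmer than the first but well above background on all 72 arrays, rose less after 4 Gy x-rays, by 1.44 (log2). It differed by 0.04 after 1 Gy x-rays, by 1.42 after 1 Gy neutrons and by 1.43 after 0.25 Gy neutrons.

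Alad rose by 2.27 ± 0.41 after 4 Gy of x-rays at day 1 (adjusted p = 0.000898). Its levels were -0.89 to 0.60 (median -0.63) in the controls and 0.96 to 2.76 (median 1.90) in the irradiated mice, without overlap. The other Alad probe, well above background on 59 of 72 arrays, differed by -0.01 there, so the rise rests on 1 probe, and with the detected probes averaged it was 1.13 and not called. Cpox, at 1.38 ± 0.34, missed the threshold in this comparison (adjusted p = 0.0048), with 4 of 5 irradiated mice above every control.

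Hepatocyte transcripts were higher in these mice as well. Their mean level over the 34 markers was 6.18 to 7.52 at day 1 in mice given 4 Gy x-rays and -2.37 to 5.13 in the controls. The groups did not overlap, so hepatocyte level and exposure cannot be told apart in this comparison. With this mean Alas1 correlated at r = 0.75 over the 13 group means and at 0.24 within groups over 72 mice, where Alad was at 0.57. At day 1 after 1 Gy neutrons the hepatocyte level was -2.36 to 6.74 and Alas1 2.05 to 4.80. With 1 Gy x-rays they were 1.32 to 6.04 and 1.91 to 5.19, and replicate 1 was the highest of that group in both. At day 3 after 0.25 Gy neutrons the hepatocyte level was 2.92 to 6.68 and Alas1 1.70 to 2.52. The part of hepatocyte transcripts in the rises was not tested.

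**Figure D2:**
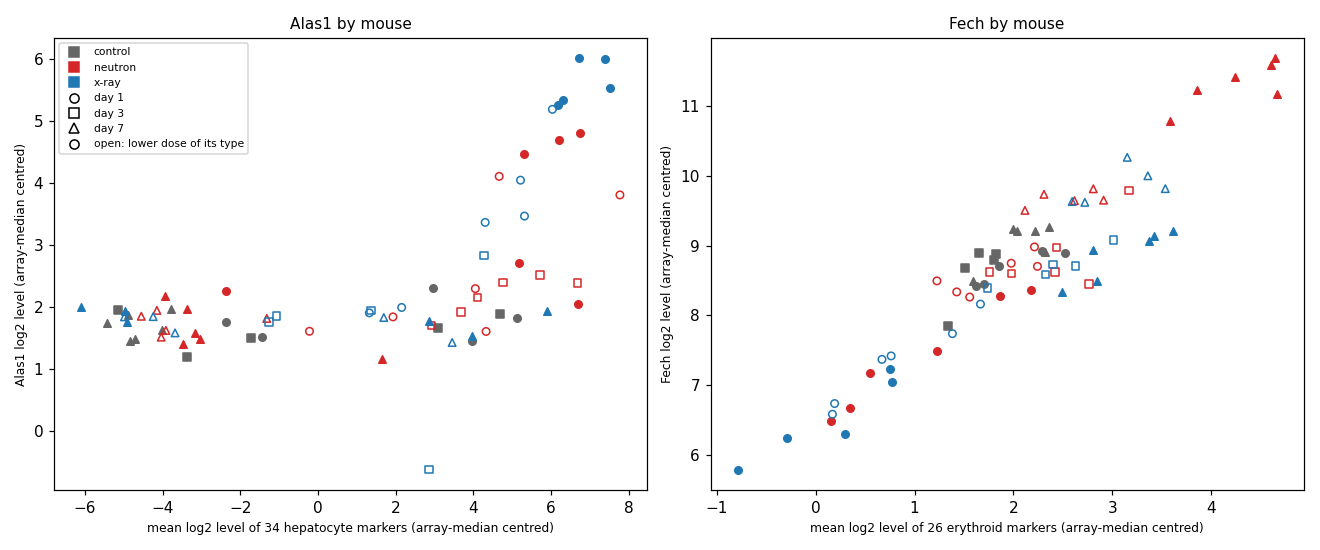
Alas1 against the mean of 34 hepatocyte markers (left) and Fech against the mean of 26 erythroid markers (right), all as log2 levels centred on the array median, 1 point per mouse. Every mouse with an Alas1 level above 4 is of day 1 and has a hepatocyte level above 4. Other mice with a hepatocyte level above 4 have a lower Alas1 level. Fech is high where the erythroid mean is high (r = 0.95 over the 13 group means).

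Alas2, the enzyme of the red cell line, was not called at day 1. Its log2 fold change was 0.12 ± 0.18 after 0.25 Gy neutrons (adjusted p = 0.716), -0.48 ± 0.24 after 1 Gy neutrons (adjusted p = 0.12), -0.40 ± 0.23 after 1 Gy x-rays (adjusted p = 0.252) and -0.70 ± 0.23 after 4 Gy x-rays (adjusted p = 0.0211). At 4 Gy its levels were 9.68, 8.93, 8.45, 9.34 and 9.32, against 9.96, 9.88, 9.49, 9.89 and 9.99 in the controls, and 4 of 5 mice lay below every control. Before centring the same mice were at 214590 to 450120 and the controls at 526690 to 659210, so that the intensities did not overlap. The 2 groups shared no scan date, however, and the unirradiated controls of day 7 were at 387920 to 490810, also below every control of day 1. With spike-in centring the difference was -0.55 and not called. Quantile normalization, which sets the arrays to 1 shared distribution, gave -0.93 and a call.

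After 0.25 Gy neutrons at day 1 none of the 9 members was called, none had an unadjusted p below 0.05 (15.4% of all genes had), and 1 gene in all was called (0.00621%). In the day 1 mice given 1 Gy neutrons none was called by limma, against 16.3% of all genes, and 3 had an unadjusted p below 0.05, as did 52.7% of all genes.

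At day 3 a single member was called. After 0.25 Gy neutrons Urod, the decarboxylase, was at 4.36 to 5.47 in 6 mice (median 5.00) and at 3.74 to 4.23 in 5 controls (median 3.83), a rise of 1.06 ± 0.21 (adjusted p = 0.0405), where 0.547% of all genes were called higher. The groups did not overlap, but the call was lost in 8 of 11 fits that left out 1 mouse. A block for scan date also ended it, where the change was 0.65. Cpox, at 1.01 ± 0.25, just missed the threshold (adjusted p = 0.0654). Alas1 changed by 0.54 ± 0.19 (adjusted p = 0.124) and Alas2 by -0.02 ± 0.30 (adjusted p = 0.971). In the day 3 mice given 1 Gy x-rays no member was called (1.56% of all genes were), and none had an unadjusted p below 0.05 (18.6% of all genes had). Alas1 differed by -0.08 ± 0.53 (adjusted p = 0.954) and Alas2 by -0.24 ± 0.26 (adjusted p = 0.683). One mouse of this group, replicate 1, stood apart, with an Alas1 level of -0.62 and an Alas2 intensity of 147850 where the other mice had 557160 to 627580. Without it the Alas1 difference was 0.46.

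At day 7 after 4 Gy x-rays Alad, Urod, Cpox and Ppox rose, while Uros, which acts between Alad and Urod, and Alas2, Fech, Alas1 and Slc25a38 were not called. Of the 9 members 4 were called higher and none lower, against 7.72% of all genes called higher. Of 26 erythroid markers 9 were called higher and none lower, with a mean level of 2.49 to 3.61 against 1.59 to 2.36. Of 10 B cell markers tested all 10 were called lower, where 2549 of all 16098 genes were called in either direction. The mean hepatocyte level was -6.10 to 5.90 against -5.43 to -3.79, and none of the 8 hepatocyte markers tested was called. Their part in the rises was not tested.

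Urod rose by 2.04 ± 0.21 after 4 Gy x-rays (adjusted p = 2.54e-05). Its levels were 5.91 to 6.86 (median 6.37), above those of all 6 controls at 3.74 to 4.65 (median 4.39), and its intensities were 31744 to 58340 against 6103 to 9081. Cpox rose by 2.02 ± 0.15 (adjusted p = 1.45e-06), from 246.8 to 412.5 in intensity to 1444 to 3202. Alad rose by 1.89 ± 0.20 (adjusted p = 2.98e-05), from 190.5 to 294.5 to 774.5 to 2667. Ppox, the oxidase before the last step, rose by 1.09 ± 0.22 (adjusted p = 0.00232), from 562.8 to 1017 to 1587 to 3402. For none of these 4 genes did an irradiated mouse overlap a control, on either scale. With spike-in centring all 4 were called, at 1.44 to 2.39, where the median of all genes was higher by 0.30 and 1403 of 16098 genes were called higher. The other Alad probe differed by 0.50. At day 7 the arrays of controls and those of mice given 4 Gy x-rays were each scanned on 1 date of their own, so scan date and group cannot be told apart. No other x-ray group shared a scan date with the controls of its day either, so the same limit touches those comparisons.

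Alas2 and Fech encode the opening and the closing enzyme of the red cell's pathway. Alas2 was at 8.98 to 10.17 (median 9.77) after 4 Gy x-rays and 9.80 to 10.56 (median 10.24) in the controls, a difference of -0.56 ± 0.20 that was not called (adjusted p = 0.0458). Fech differed by -0.19 ± 0.19 (adjusted p = 0.454), and Alas1 by 0.14 ± 0.13 (adjusted p = 0.424). The other Alas1 probe differed by -1.60, so the small Alas1 difference rests on 1 probe. The other uncalled members, Uros and Slc25a38, lay between -0.07 and 0.23.

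After 1 Gy neutrons at day 7, 8 of the 9 members were called higher, against 18.4% of all genes. Relative to the array median, Cpox rose most, by 3.72 ± 0.27 (adjusted p = 5.24e-07). Urod rose by 2.39 ± 0.28, Fech by 2.26 ± 0.19, Alas2 by 2.18 ± 0.17, Ppox by 1.71 ± 0.25, Alad by 1.5 ± 0.23, Uros by 1.35 ± 0.23 and Slc25a38 by 0.67 ± 0.15 (adjusted p from 8.19e-07 to 0.00179). In each of the 8 every irradiated mouse was above every control. Alas1 differed by -0.06 ± 0.18 (adjusted p = 0.795).

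These values are relative to a median that itself fell. With spike-in centring the median of all genes tested was lower by 1.95 in this comparison, and the 9 members ran from -1.95 to 1.83. Cpox was then the only member called higher, at 1.83 (adjusted p = 2.36e-05), and Slc25a38, at -1.22, and Alas1, at -1.95, were called lower. Of all 16098 genes 146 were called higher and 10868 lower on that scale. Alas2 differed by 0.29, Fech by 0.37 and Urod by 0.49 on that scale, none of them called. Quantile normalization kept Cpox at 3.44, Ppox at 1.52, Alad at 1.48, Urod at 1.44 and Uros at 1.15 as called, while Alas2 was at -0.05 and Fech at 0.34. With normexp background correction 1 member was called, Cpox at 2.04, and with a block for scan date 5 were. Cpox was thus called higher under each of the normalizations tried.

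Cpox was at 593.2, 961, 1880, 912, 1257 and 1357 in the 6 mice given 1 Gy neutrons and at 246.8, 251.6, 366.9, 354.8, 358.1 and 412.5 in the controls of day 7, without overlap. Alas2 was at 414170 to 535200 (median 513270) against 387920 to 490810 (median 434690), and the groups overlapped. Fech was at 207210 to 298330 (median 227200) against 166750 to 222610 (median 195270), with a narrow overlap. Slc25a38 was at 508.5 to 912.9 (median 618.2) against 1304 to 1929 (median 1570), below every control. Of 26 erythroid markers 21 were called higher and none lower relative to the array median, with a mean level of 3.58 to 4.66 against 1.59 to 2.36. With spike-in centring 4 were higher and 6 lower, where 146 of all 16098 genes were called higher and 10868 lower. The part of these markers in the values above was not tested.

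**Figure D3:**
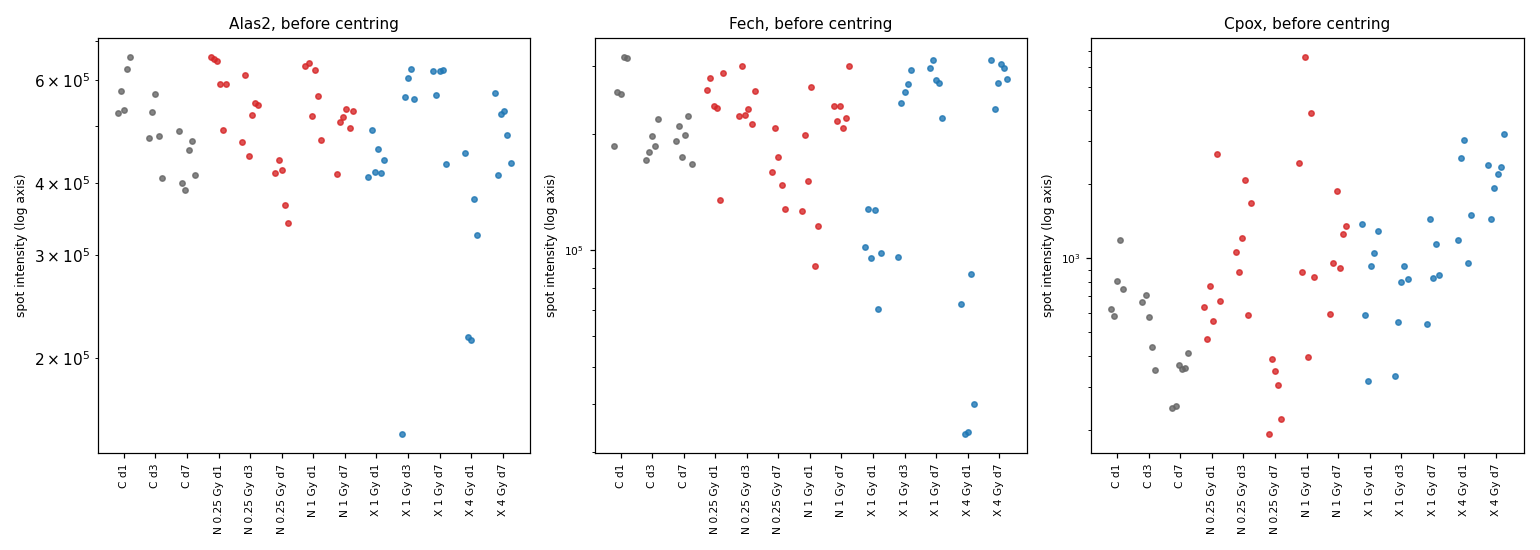
Spot intensity before centring (y axis, log scale) of Alas2, Fech and Cpox by group (x axis; C control, N neutron, X x-ray, d day), 1 point per mouse, grey for control, red for neutron and blue for x-ray. Alas2 spans 147850 to 659210 over all mice, Fech falls to 33481 to 86892 at day 1 in mice given 4 Gy x-rays, and Cpox at day 7 is above every control of that day after 1 Gy neutrons and after both x-ray doses.

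After 1 Gy x-rays at day 7, 3 members were called higher, against 2.64% of all genes. Of 26 erythroid markers 14 were called higher and none lower, with a mean level of 2.59 to 3.54 against 1.59 to 2.36, and none was called with spike-in centring. Their part in the rises was not tested. Cpox rose by 1.81 ± 0.21 (adjusted p = 0.0018), with levels of 1.17, 2.26, 1.25, 1.93 and 1.63 above every control at -0.46 to 0.13. Urod rose by 1.16 ± 0.25 (adjusted p = 0.022) and Fech by 0.81 ± 0.18 (adjusted p = 0.0223), each without overlap. The calls of Urod and Fech were lost in 8 and 7 of 11 fits that left out 1 mouse, and no member was called with spike-in centring, where the median of all genes was lower by 0.78. Cpox was then at 1.06. Alas2 differed by 0.70 ± 0.17 (adjusted p = 0.0321) and Alas1 by 0.02 ± 0.14 (adjusted p = 0.952). The other Alas1 probe differed by -1.12.

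After 0.25 Gy neutrons at day 7 limma called no member, against 0.547% of all genes, though 5 had an unadjusted p below 0.05 (22.9% of all genes had) and all 9 differences were above 0, at 0.06 to 0.74. Alas2 came nearest, at 0.74 ± 0.15 (adjusted p = 0.0514), with all 5 mice at 10.82 to 11.23 above the controls. Before centring its intensities were 341000 to 438280, within or below the 387920 to 490810 of the controls. With spike-in centring, where the median of all genes was lower by 1.01, all 9 differences were below 0, and Alas2 was at -0.26. Alas1 differed by 0.06 ± 0.13 (adjusted p = 0.818).

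**Figure D4:**
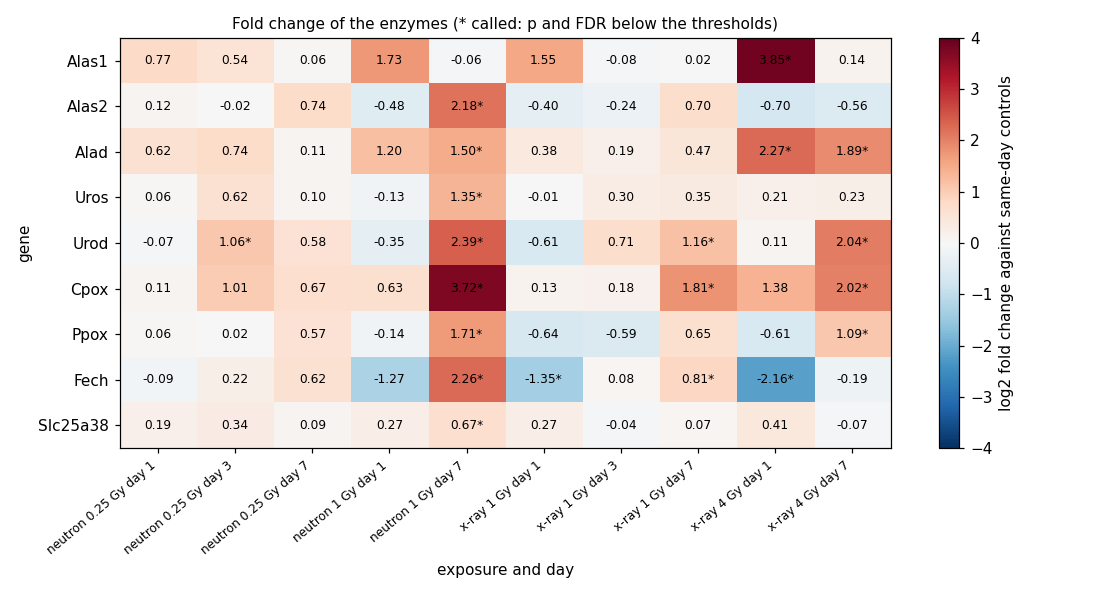
Log2 fold change against the controls of the same day (colour and printed value) for each enzyme (rows) in each exposure and day (columns), on array-median centred levels, with an asterisk where the gene was called. The 8 called rises at day 7 after 1 Gy neutrons and the opposite changes of Alas1 and Fech at day 1 in mice given 4 Gy x-rays stand out.

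Whether an effect differed between the days was tested by subtracting the change at day 1 from that at day 7. After 4 Gy x-rays the change was called in opposite directions for 2 members, Alas1 by -3.72 ± 0.24 (adjusted p = 8.52e-09) and Fech by 1.97 ± 0.33 (adjusted p = 0.000132). Urod, at 1.94 ± 0.37, and Ppox, at 1.70 ± 0.29, were called as well. That made 3 members higher at day 7, against 11.3% of all genes, and 1 lower, against 8.45%. With 1 Gy neutrons 6 members were called higher at day 7 (Fech 3.53 ± 0.39, Cpox 3.09 ± 0.57, Urod 2.73 ± 0.37, Alas2 2.66 ± 0.29, Ppox 1.85 ± 0.32, Uros 1.48 ± 0.28), against 16.1% of all genes. With spike-in centring 1 member was called higher and 2 lower there, against 206 and 11246 of all 16098 genes. With 1 Gy x-rays 4 were called higher (Fech 2.16 ± 0.33, Urod 1.77 ± 0.34, Cpox 1.67 ± 0.32, Ppox 1.30 ± 0.26), against 5.05%. After 0.25 Gy neutrons none was called, against 0.752%, and 2 had an unadjusted p below 0.05 (15.7% of all genes had). These tests share the controls. Between the control groups of day 7 and day 1 limma called no member, against 4.39% of all genes, with differences of -0.43 to 0.42 and 4 members at an unadjusted p below 0.05, as were 33.8% of all genes.

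Neutrons and x-rays were set against each other directly. At day 1 limma called no member between 1 Gy neutrons and 1 Gy x-rays (9.62% of all genes were called), and 1 had an unadjusted p below 0.05 (35.1% of all genes had). None was called between 1 Gy neutrons and 4 Gy x-rays either (0.0311%), and 3 had an unadjusted p below 0.05 (18.3% of all genes had). Alas1 was lower by 2.13 ± 0.54 after the neutrons than after 4 Gy x-rays, and all 6 neutron mice lay below all 5 x-ray mice, but the adjusted p was 0.153. At day 7 Alas2 (1.48 ± 0.18), Uros (1.00 ± 0.23), Cpox (1.92 ± 0.32) and Fech (1.45 ± 0.19) were called higher after 1 Gy neutrons than after 1 Gy x-rays, against 13.1% of all genes. Against 4 Gy x-rays the same 4 genes and Slc25a38 were called higher, Alas2 by 2.74 ± 0.20, Fech by 2.45 ± 0.20, Cpox by 1.70 ± 0.27, Uros by 1.13 ± 0.25 and Slc25a38 by 0.74 ± 0.16, against 22.7%. With 1 mouse left out the Uros call was lost in 9 of 11 fits against 1 Gy x-rays and 9 of 12 against 4 Gy, and that of Slc25a38 in 8 of 12. Urod (0.34 ± 0.29) and Alad (-0.39 ± 0.27) were not called between these 2 groups. On the spike-in scale, where the median of all genes was lower by 1.16 and 2.35, no member was called against 1 Gy x-rays. Of all 16098 genes 5485 were called lower there. Against 4 Gy x-rays 6 members were called lower after neutrons and none higher, and 12499 of all genes were called lower.

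Across the 13 group means, Urod ran with Uros (r = 0.90) and Ppox (r = 0.90), and Alas2 with Fech (r = 0.93), whereas Alas1 and Fech ran opposite (r = -0.79). Alas1 and Alad correlated at r = 0.70. These points share arrays and their centring. The group means of Alas2 ran from 9.14 at day 1 in mice given 4 Gy x-rays to 12.41 at day 7 after 1 Gy neutrons. Below that top group came 0.25 Gy neutrons (10.96) and 1 Gy x-rays (10.93) of day 7, which differed by less than the SD of either, then the controls of day 7 (10.23), and below these every neighbour in the order differed by less than the larger SD of the pair. Fech ran from 6.52 to 11.31, between the same groups as Alas2. Cpox ran from -0.16 in the controls of day 7 to 3.57 at day 7 after 1 Gy neutrons, and only its top group stood clear of the next (4 Gy x-rays of day 7, 1.87) by more than the SD. Alas1 ran from 1.55 at day 3 after 1 Gy x-rays to 5.62 at day 1 in mice given 4 Gy x-rays, and the latter stood 2.13 above the next group.

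The genes whose group means were most like those of Alas2 (r of 0.988 to 0.997 over 13 groups) were Ubb, Oaz1, AK015717, Hbb-b2, Hbb-bt, A430078G23Rik, Isg20, Olfr821 and Asic3, with 1 probe that has no gene name. Ubb encodes ubiquitin, Oaz1 the antizyme of polyamine synthesis, and Hbb-b2 and Hbb-bt β-globins, all abundant in reticulocytes. Globin transcripts had been depleted from the RNA. Over the same group means Alas2 correlated with the array median at r = -0.95. Ubb, Oaz1 and Hbb-bt were bright as well, at mean levels of 9.19, 8.92 and 9.74 in the controls of day 1. The part of the shared centring in this likeness was not tested. Olfr821 was dim, with a mean level of -3.13 in the controls of day 1 and 1.55 at day 7 after 1 Gy neutrons.

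The probes were placed by the array's annotation on mm9. The Alas2 probe lies at chrX:147004993-147005052, the Cpox probe at chr16:58680403-58680465 and the Urod probe at chr4:116662850-116662909. The Alas1 probe used lies at chr9:106136284-106136343, the Alad probe at chr4:62172559-62172618, the Uros probe at chr7:140878069-140878128 and the Slc25a38 probe at chr9:120033376-120033435. Exons were not analysed here for that build. Alas1, Alad and Uros had a further detected probe each. The Uros probes differed from the controls by 1.35 and 2.26 at day 7 after 1 Gy neutrons.

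Of 28 further genes of heme, iron and iron-sulphur cluster handling, 26 were tested. Slc25a37, mitoferrin, which brings iron into the mitochondrion, was called in 6 comparisons with controls. At day 1 it fell by 3.63 ± 0.39 with 4 Gy x-rays, by 2.13 ± 0.29 with 1 Gy x-rays and by 2.06 ± 0.43 in the 1 Gy neutron mice. At day 7 it rose by 2.94 ± 0.20 in mice given 1 Gy neutrons, by 1.44 ± 0.18 with 1 Gy x-rays and by 0.99 ± 0.18 in those given 0.25 Gy neutrons. With spike-in centring its falls stayed called, and at day 7 it was at 1.04, 0.70 and -0.0051 in these groups, none called.

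At day 1 in mice given 4 Gy x-rays 4 partners were called higher and 5 lower, with Pgrmc1, a heme-binding membrane protein, highest at 3.00 ± 0.48. Of all genes 12.8% were called higher and 16.6% lower there, near the shares of the partners, so these counts show nothing particular to them. With 1 Gy x-rays 5 partners were lower, against 3.8% of all genes, and none higher. After 1 Gy neutrons 2 were higher and 4 lower, where 16.3% of all genes were called in either direction. Tmem14c, a porphyrin transporter of the inner membrane, was highest there at 0.96 ± 0.20. At day 7 the counts were 14 higher and 3 lower after 1 Gy neutrons, 7 higher after 4 Gy x-rays, 3 higher after 1 Gy x-rays and 1 higher after 0.25 Gy neutrons. Of all genes 18.4%, 7.72% and 2.64% were called higher in the first 3 of these groups. In the first of them 5829 of all 16098 genes were called in either direction. After 0.25 Gy neutrons 0.547% were called in either direction. The lowest after 1 Gy neutrons was Fdx2, a ferredoxin, at -0.88 ± 0.14. The highest after 4 Gy x-rays was Eif2ak1, the heme-regulated eIF2α kinase, at 1.76 ± 0.23. It was also the 1 partner called at day 3 after 1 Gy x-rays, at 1.00 ± 0.18, where 1.56% of all genes were called. The median change of the 26 partners after 1 Gy neutrons at day 7 was 1.04, that of the 9 members 1.71 and that of all genes -0.05. With spike-in centring none of these partners was called higher and 12 were lower, with a median of -0.85 against -1.95 for all genes. Of all 16098 genes 10868 were called lower there. On that scale 8 partners were higher in the day 7 mice given 4 Gy x-rays, with Eif2ak1 at 2.11, where 1403 of all genes were higher. None was called in those given 1 Gy x-rays. In those given 0.25 Gy neutrons 10 partners were lower and none higher, where 4663 of all genes were lower. Eif2ak1 was then at 0.22 at day 3 and not called. After 4 Gy of x-rays at day 7 the medians of partners, members and all genes were 0.43, 0.23 and -0.05 relative to the array median. With spike-in centring they were 0.78, 0.58 and 0.30.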

How the data were processed

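RNA of 72 mice had been hybridized by the authors on one-colour Agilent whole-genome mouse arrays of 44397 spots and read with Agilent Feature Extraction 12.0.2, per the submitters' processing notes. The deposited array files give a background-corrected intensity per spot. The deposited value table holds log2 values processed by the authors, with no fold changes or p-values. Here 1377 control spots were left out, spots of 1 probe averaged, and log2 intensities centred on each array's median over 19808 detected probes. A probe was detected when fewer than 25% of its spots on the day 1 and day 7 arrays were flagged. A flag marked an outlier (non-uniform or population) or a spot not well above background. Genes were named through the accession where RefSeq tables held it (28330 of 39429 probes). Each of 16098 genes was represented by its brightest detected probe on the day 1 and day 7 arrays. Comparisons of 2 groups were fitted with limma 3.58.1 in R 4.3.3 (lmFit and eBayes, two-sided), and changes between days in a fit of 4 groups. The call threshold was p below 0.001 together with FDR below 0.05. The scripts were tested on simulated data.

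The members and gene lists were chosen with earlier results of these data known. Members were named where called, Alas1 and Alas2 in every comparison with controls, the partners by the largest called rise and fall (1 further gene fixed by that rule is not reported here), and the 10 genes most like Alas2 by correlation. Uncalled members close to the threshold were named after their values were seen. The alternatives were normexp background correction (offset 50), 75th percentile, quantile and spike-in centring (320 spots), dim spots as missing, no detection filter, a 1.5-fold filter, averaged probes, 1 fit of all 13 groups, replicate, scan date and slide blocks, a hepatocyte covariate, each mouse left out, and the authors' table. Each array is 1 mouse, and the number of arrays limits the precision.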

Additional observations from a re-analysis of the deposited data

Results flagged for a closer look

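In each group of 5 or 6 mice the gap between an extreme mouse and its nearest neighbour was set against the group's range (Dixon's test). Of 117 groups tested, 13 were past the 95% critical value, where chance gives about 1 in 20. For Alad these were control day 7 replicate 2 (level -0.24, nearest -0.70), 0.25 Gy neutrons day 1 replicate 5 (2.90, nearest 0.18), 1 Gy neutrons day 7 replicate 4 (-0.23, nearest 0.70) and 1 Gy x-rays day 7 replicate 3 (-0.69, nearest -0.13). For Alas2 they were control day 1 replicate 3 (9.49, nearest 9.88), 0.25 Gy neutrons day 3 replicate 5 (11.16, nearest 10.01) and 1 Gy x-rays day 3 replicate 1 (9.02, nearest 9.81). The last mouse was also low in Slc25a38 (0.78, nearest 2.17). Cpox stood apart in 0.25 Gy neutrons day 1 replicate 5 (2.84, nearest 0.31), the mouse that stood apart in Alad, and in 0.25 Gy neutrons day 7 replicate 1 (-0.18, nearest 0.65), which was low in Urod too (4.23, nearest 4.98). Fech was low in control day 3 replicate 1 (7.85, nearest 8.68) and Slc25a38 in control day 3 replicate 5 (1.63, nearest 2.04).

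Of 36 tests of a member's day 7 effect against its day 1 effect, 14 were called by limma. After 1 Gy neutrons the differences were 2.66 for Alas2, 1.48 for Uros, 2.73 for Urod, 3.09 for Cpox, 1.85 for Ppox and 3.53 for Fech. After 1 Gy x-rays they were 1.77 for Urod, 1.67 for Cpox, 1.30 for Ppox and 2.16 for Fech. After 4 Gy x-rays they were -3.72 for Alas1, 1.94 for Urod, 1.70 for Ppox and 1.97 for Fech.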

How the results depend on the processing

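Of 845 member values with 1 mouse left out, 770 kept direction and call, 58 lost the call, 3 gained it and 14 changed sign. Members called then ranged, against controls, from 0 to 0 (0.25 Gy neutrons day 1), 0 to 2 (day 3), 0 to 1 (day 7), 0 to 2 (1 Gy neutrons day 1), 7 to 8 (day 7), 1 to 2 (1 Gy x-rays day 1), 0 to 1 (day 3), 1 to 3 (day 7), 3 to 4 (4 Gy x-rays day 1) and 4 to 4 (day 7). Between days they ranged from 6 to 7 (1 Gy neutrons) and 4 to 5 (1 Gy x-rays), and at day 7 from 3 to 7 (1 Gy neutrons against 1 Gy x-rays) and 3 to 5 (against 4 Gy). Changes of sign under a left-out mouse were in Alas2 at day 3 after 0.25 Gy neutrons (range -0.26 to 0.068, above 0 in 7 fits) and in Alas1 at day 7 after 1 Gy neutrons (-0.17 to 0.035), at day 3 after 1 Gy x-rays (-0.40 to 0.46, above 0 without replicate 1) and at day 7 after 1 Gy x-rays (-0.029 to 0.087, below 0 in 5 fits). The causes were not tested.

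Under the other alternatives the number called changed by over 1.5 times, or to or from 0, as listed here. At day 3 after 0.25 Gy neutrons it was 0 with normexp, spike-in centring, no detection filter, the replicate block, scan date, slide and hepatocyte terms. At day 7 after 0.25 Gy neutrons it was 1 (Alas2) with the 75th percentile, no detection filter or averaged probes. After 1 Gy neutrons at day 1 it was 1 with averaged probes and 2 in the fit of all groups, and at day 7 it was 1 with normexp, 5 with quantile normalization, 3 with spike-in centring and 5 with scan date as a block. For 1 Gy x-rays it was, at day 1, 0 with normexp, the replicate block, scan date as a random block and the hepatocyte covariate, and 2 with the 75th percentile, quantile normalization and the fit of all groups. At day 7 it was 1 with normexp, no detection filter, the replicate block and the slide, and 0 with spike-in centring. Between days it was 1 with spike-in centring (0.25 Gy neutrons), 1 with normexp, 3 with spike-in centring and 3 with scan date (1 Gy neutrons), 1 with normexp and 0 with spike-in centring (1 Gy x-rays), and 1 with normexp (4 Gy x-rays). For 1 Gy neutrons against 4 Gy x-rays at day 1 it was 1 with spike-in centring, 1 in the fit of all groups and 3 with the slide. At day 7 it was 0 with normexp, 1 with quantile normalization, 0 with spike-in centring, 7 in the fit of all groups and 0 with the slide (against 1 Gy x-rays), and 0 with normexp, 2 with quantile normalization and 3 with dim spots missing, the replicate block, scan date and slide (against 4 Gy x-rays). Between the controls it was 1 with averaged probes.

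Other changes of sign were as follows. With normexp they were Alas2 at day 3 after 0.25 Gy neutrons (0.0096) and 1 Gy x-rays (0.071), Alas1 (-0.45) and Alas2 (-0.26) at day 7 after 0.25 Gy neutrons, Slc25a38 at day 7 after 1 Gy neutrons (-0.43), and, for these neutrons against 1 Gy x-rays, Alas2 (-0.19), Uros (-0.15) and Fech (-0.18), and against 4 Gy, Slc25a38 (-0.28). With quantile normalization Alas2 was at -0.091 (0.25 Gy neutrons day 1), -0.048 (day 7), -0.051 (1 Gy neutrons day 7), -0.0047 (1 Gy x-rays day 7) and -0.047 (1 Gy neutrons against 1 Gy x-rays), and Fech at -0.011 (against 4 Gy). With spike-in centring they were, at day 7, Alas1 (-0.93) and Alas2 (-0.26) after 0.25 Gy neutrons, Alad (-0.39), Uros (-0.54), Ppox (-0.18) and Slc25a38 (-1.22) after 1 Gy neutrons, and Alas1 (-0.73) and Alas2 (-0.041) after 1 Gy x-rays. They were also Alas2 at day 1 after 1 Gy neutrons (0.012), Uros (-0.90) and Ppox (-0.53) between days, Uros (-0.14) against 1 Gy x-rays, and Uros (-1.11), Cpox (-0.54) and Slc25a38 (-1.50) against 4 Gy. The rest were Alas2 with the authors' table (-0.070), Alas1 with dim spots missing (-0.025) and slide (-0.35) at day 7 after 0.25 Gy neutrons, Alas1 with the hepatocyte covariate (0.16) at day 7 after 1 Gy neutrons, Alas1 with averaged probes at day 7 after 1 Gy (-0.55) and 4 Gy x-rays (-0.73) and with slide after 1 Gy (-0.0084), and Alas2 with slide (0.060) at day 3 after 0.25 Gy neutrons.

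Mice of equal replicate number were not treated as pairs. In no comparison did all pairs correlate above 0.1 (range -0.53 to 0.64). This check used deviations from the means of small groups, so it cannot exclude pairing. The replicate block lost 9 calls of members and turned Alas2 at day 3 after 0.25 Gy neutrons to 0.066. Leaving out arrays with a saturated Alas2 spot, chosen after seeing the data, changed no call of Alas2. The authors' table could be used at day 1 after 0.25 Gy neutrons only. A scan date block was not possible where both groups shared 1 date (0.25 Gy neutrons day 1 and day 7) or had a date each (4 Gy x-rays day 7, controls of day 7 against day 1). The other x-ray groups shared no date with their controls, so there scan date entered as a random block only. Slc25a38 did not pass the 1.5-fold filter. Saturation and brightness limit what Alas2 can show.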

Other observations

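The genes whose group means were most like those of Alas1 were chosen after its values were seen. They were Pcsk4 (r = 0.985 over 13 groups), Dbp (0.978), Grpel1 (0.977), Usp2 (0.974), Hook2 (0.974), Nkd2 (0.969), Bnip3 (0.968), Brap (0.967), Tmem59 (0.966) and Wipf3 (0.963). Dbp encodes a clock-controlled transcription factor and Usp2 a deubiquitinase with circadian transcripts. Alas1 was highest in the day 1 mice given 4 Gy x-rays, so a rise there follows from the choice and is no separate evidence. All the genes listed were higher there than in the controls. The rises ran from 1.26 (Tmem59) to 5.58 (Usp2) on the log2 scale, with Dbp at 3.75. The time of day of collection is not given in the sources used here, and its part was not tested.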
